A study of Schmidtea mediterranea with 14 samples.

Results

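The transcripts described here were 139 planarian transcripts that the study's annotation tied to triglyceride metabolism and that it did not list under lipid transport. They were chosen by annotation and not by how they responded: the study's triglyceride sheet names 149 transcripts, 6 of these are also in its lipid transport sheet, and 139 of the remaining 143 had at least 1 CPM (the count scaled to a common library size) in at least 4 of 14 libraries. All 18436 transcripts that met this filter were tested, of 28069 in the file. RNA came from whole, uninjured asexual *Schmidtea mediterranea* of the clonal line CIW4, each library being a biological replicate of 5 to 6 pooled animals. *apob-S* animals (4 libraries) and *apob-M* animals (4 libraries) were both fed dsRNA of *apob-1* and *apob-2*, which encode the protein core of lipoproteins, and were told apart by severe or mild loss of pigment, so their group followed from the phenotype. Control animals (6 libraries) were fed dsRNA of *egfp*, a jellyfish gene. Every animal had 3 dsRNA feedings in liver and was then starved for 7 days, so no group was freshly fed, and RNAi lowered the 2 transcripts without deleting a gene.

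Triglycerides are built by joining fatty acids to glycerol, are stored in lipid droplets, and are broken down by lipases when the fatty acids are needed. In planarians, whose stem cells are called neoblasts, the intestine is a main site of lipid storage, and lipoproteins carry lipid from it to other tissues. The transcripts were grouped by their Gene Ontology terms into synthesis, storage, breakdown and mobilization, homeostasis (the keeping of a steady level), and triglyceride metabolic process with no finer term. Of the 139, 28 had a human best hit in the supplementary tables that were held, in part, for this work. A best hit is the most similar human protein and does not establish that the planarian protein has the same role. The other transcripts are named by their dd_Smed_v6 identifiers, those of the transcriptome assembly used for counting.

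Libraries held between 16839133 and 23039326 counts. Values are normalized CPM, that is, CPM scaled with edgeR's trimmed mean of M values (TMM). A transcript was called where edgeR's quasi-likelihood test gave an adjusted p under 0.05, with Benjamini-Hochberg adjustment over all 18436 transcripts. Both targeted transcripts lay below all control libraries in all libraries of the knockdown groups: *apob-1* averaged 288 normalized CPM in *apob-S*, 266.8 in *apob-M* and 1414 in control, and *apob-2* averaged 374 in *apob-S*, 439 in *apob-M* and 1187 in control (exact two-sided permutation p = 0.00476 for each comparison with control, the smallest that 210 splits allow). The transcript dd_Smed_v6_4_1_1 held 5.36% of all counts in *apob-S* replicate 2 and 7.28% in *apob-M* replicate 3. The top transcript of the other 12 libraries held at most 2.43%. In control replicates 1 (2.43%) and 2 (2.05%) this was also dd_Smed_v6_4_1_1, and in the rest dd_Smed_v6_3_0_1. Counts of control replicates 1 and 2 differed less from each other (chi-square per degree of freedom 7.04) than from control replicates 3 to 6 (27.6 to 44.1). Control replicates 1 and 2 were left out singly, not together. Leaving out *apob-S* replicate 2 and *apob-M* replicate 3 left 43 triglyceride transcripts higher and 19 lower in *apob-S* against control (12.4% and 14.2% of all transcripts). In *apob-M* against control 21 were higher and 7 lower (5.11% and 5.92%).

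Triglyceride transcripts more often rose than fell after *apob* knockdown. In *apob-S* against control, 43 of 139 rose and 19 fell (44.6% called), where 13.5% of all transcripts tested rose and 15.7% fell (29.3% in either direction). In *apob-M* against control, 27 of 139 rose and 9 fell (25.9% called), where 7.05% of all transcripts rose and 8.24% fell (15.3% in either direction). With edgeR's exact test 17 rose in *apob-M* (5.39% of all transcripts). Both comparisons used the same 6 control libraries. The share that fell was thus near the background in both comparisons, and the share that rose was above it. The changes were small: the median size of a called change was 0.27 on the log2 scale in *apob-S* and 0.21 in *apob-M*. Only dd_Smed_v6_4422_0_1, which rose, and dd_Smed_v6_1086_0_1, which fell, changed by at least 2-fold in *apob-S* against control, and none did so in *apob-M* (background 1.45% and 0.429%). Libraries did not overlap for 39 transcripts that lay above control and 16 below it in *apob-S* (background 10.4% and 11.7%), and for 21 above and 6 below in *apob-M* (background 6.09% and 6.44%).

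**Figure D1:**
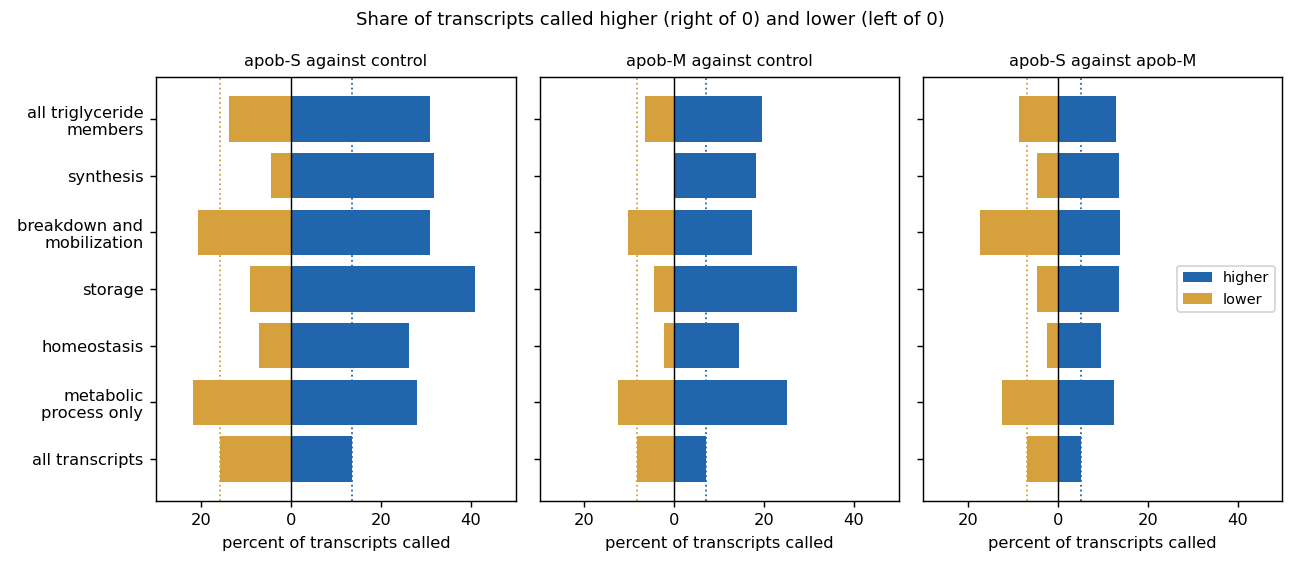
Percent of transcripts called higher (blue, right of 0) and lower (yellow, left of 0) in each comparison, for the 139 triglyceride transcripts, for each annotation group and, in the bottom row, for all 18436 transcripts tested, with dotted lines at the values of that bottom row. In *apob-S* against control 30.9% of the triglyceride transcripts were higher and 13.7% were lower, and in *apob-M* against control 19.4% were higher and 6.47% were lower.

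Over the whole list the shift was slight. The median log2 fold change of the 139 was 0.068 in *apob-S* against control and 0.027 in *apob-M* against control, whereas the median of all transcripts tested was -0.0027 in *apob-S* and -0.0025 in *apob-M*. Without *apob-S* replicate 4 the *apob-S* median was 0.024. The summed level of the 139 was 11020 normalized CPM in *apob-S* (range 10790 to 11320), 10440 in *apob-M* (10310 to 10560) and 9655 in control (9459 to 9797), with no overlap between any of the groups. A few abundant transcripts weighed most in this sum. Between *apob-S* and control, dd_Smed_v6_1144_0_1 averaged 781 against 446, dd_Smed_v6_859_0_1 647 against 483, dd_Smed_v6_1171_0_1 351 against 200 and dd_Smed_v6_257_0_1 880 against 734. Their levels were higher than those of most transcripts: 80.6% of the triglyceride transcripts averaged at least 10 normalized CPM, against 55.7% of all transcripts tested, and their median was 19.5 normalized CPM per kb of transcript, against 9.84 per kb. Counting error is smaller at such levels. With the filter raised to 5 CPM, 45 of 129 triglyceride transcripts rose in *apob-S* against control (19% of all transcripts) and 20 fell (21%), and 28 rose (10.3%) and 10 fell (12.5%) in *apob-M*. In RNA from whole animals, fewer cells of a type and less RNA per cell cannot be told apart.

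Markers of several cell types moved with the groups. Among 4 intestinal markers *slc22a6* and *nkx2.2* rose in *apob-S* (log2 fold changes 0.35 and 0.32) and in *apob-M* (0.25 and 0.12), *npc2* fell in *apob-S* (-0.23) and *apob-M* (-0.40), and *ctsla* was not called. The summed level of the 4 ranged from 2439 to 2833 normalized CPM in *apob-S*, from 2415 to 2747 in *apob-M* and from 2475 to 2810 in control, so these ranges overlapped. The neoblast marker *tgs-1* rose in *apob-S* and *apob-M* (0.64 and 0.68), whereas *piwi-1*, the defining neoblast marker, was not called (0.088 in *apob-S*, where all libraries lay above control, edgeR adjusted p = 0.0623). The cholinergic neuron marker *ChAT* rose in *apob-M* (0.22, edgeR adjusted p = 0.0123) and was not called in *apob-S* (0.042, adjusted p = 0.655). The epidermal progeny marker *prog-1* fell (-0.75 in *apob-S* and -0.22 in *apob-M*), as did the pharynx marker laminin (-0.97 in *apob-S* and -0.44 in *apob-M*). None of these markers was near 0 in any group. Their part in the results on triglyceride transcripts was not tested.

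The synthesis group held 22 transcripts annotated to triglyceride synthesis or its regulation. In *apob-S* against control 7 rose (31.8%, against 13.5% of all transcripts) and 1 fell (4.55%, against 15.7%). In *apob-M* 4 rose (18.2%, against 7.05%) and none fell (against 8.24%). The 4 that rose in both comparisons were 2 transcripts whose best hit was ACACA, the acetyl-CoA carboxylase that makes malonyl-CoA for fatty acid synthesis, 1 with a best hit to AGMO, an oxygenase that cleaves ether lipids, and dd_Smed_v6_9544_0_1. The transcript dd_Smed_v6_7823_2_1 (best hit ACACA) had 109.3, 110.9, 115.8 and 113.4 normalized CPM in *apob-S*, 98.5, 90.5, 92.1 and 90.4 in *apob-M*, and 55.1 to 67.2 (median 63.7) in control. All 3 groups were apart from each other. It was 1.78-fold higher in *apob-S* than in control (0.84 ± 0.048 on the log2 scale, with the standard error, and an edgeR adjusted p of 2.19e-10) and 1.48-fold higher in *apob-M* (0.56 ± 0.048, adjusted p = 1.57e-07).

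The longer transcript with an ACACA best hit, dd_Smed_v6_7598_0_1, moved less. It had 133.6, 135.9, 135.3 and 136.3 normalized CPM in *apob-S*, 126.8, 132.6, 136.0 and 126.3 in *apob-M*, and 106.8 to 113.5 (median 109.5) in control. Both knockdown groups lay above control and overlapped each other, with log2 fold changes of 0.30 ± 0.035 in *apob-S* (edgeR adjusted p = 2.16e-06) and 0.25 ± 0.035 in *apob-M* (adjusted p = 7.13e-05). Reads that matched several transcripts were counted on each, so transcripts of similar sequence may share counts. The transcript with the AGMO best hit, dd_Smed_v6_3673_0_1, had 125.1, 118.1, 117.8 and 122.1 normalized CPM in *apob-S*, 96.9, 93.3, 97.4 and 92.0 in *apob-M*, and 77.3 to 87.3 (median 82.4) in control, again with no overlap between any of the groups. Its log2 fold change was 0.55 ± 0.039 in *apob-S* and 0.21 ± 0.039 in *apob-M* (edgeR adjusted p = 3.06e-09 and 0.00119).

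The synthesis transcript with the largest change in *apob-S* was not called in *apob-M*. This transcript, dd_Smed_v6_2472_0_1, had 96.9, 83.2, 88.6 and 82.5 normalized CPM in *apob-S*, 52.3, 44.3, 54.0 and 46.5 in *apob-M*, and 39.7 to 53.9 (median 47.6) in control. The *apob-S* libraries all lay above those of both other groups, whereas *apob-M* and control overlapped. Its log2 fold change was 0.89 ± 0.072 in *apob-S* against control (edgeR adjusted p = 1.68e-08), 0.055 ± 0.074 in *apob-M* against control (adjusted p = 0.687) and 0.84 ± 0.080 in *apob-S* against *apob-M* (adjusted p = 1.78e-06). The transcript with a MOGAT2 best hit, dd_Smed_v6_4947_0_1, averaged 57.8 ± 6.67 normalized CPM in *apob-S*, 50.2 ± 4.21 in *apob-M* and 48.2 ± 3.01 in control (SD, n = 4, 4 and 6). MOGAT2 is an acyltransferase that makes diacylglycerol in the intestine of mammals. It rose in *apob-S* against control (log2 fold change 0.26, edgeR adjusted p = 0.00647), and its value in *apob-M* was 0.060 (adjusted p = 0.631). The transcripts with best hits to GK, the glycerol kinase, and FITM2, which acts in lipid droplet formation, were not called in any comparison: their log2 fold changes were 0.089 and 0.097 in *apob-S* and 0.15 and -0.064 in *apob-M* against control. Without *apob-M* replicate 1 the FITM2 homolog dd_Smed_v6_10388_0_1 was called higher in *apob-S* than in *apob-M* (0.26, edgeR adjusted p = 0.0282). The only synthesis transcript that fell was dd_Smed_v6_12714_0_1, annotated to negative regulation of triglyceride synthesis, with 5.04 ± 0.505 normalized CPM in *apob-S*, 7.39 ± 0.557 in *apob-M* and 6.99 ± 1.10 in control (log2 fold change -0.47 in *apob-S*, edgeR adjusted p = 0.0056).

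**Figure D2:**
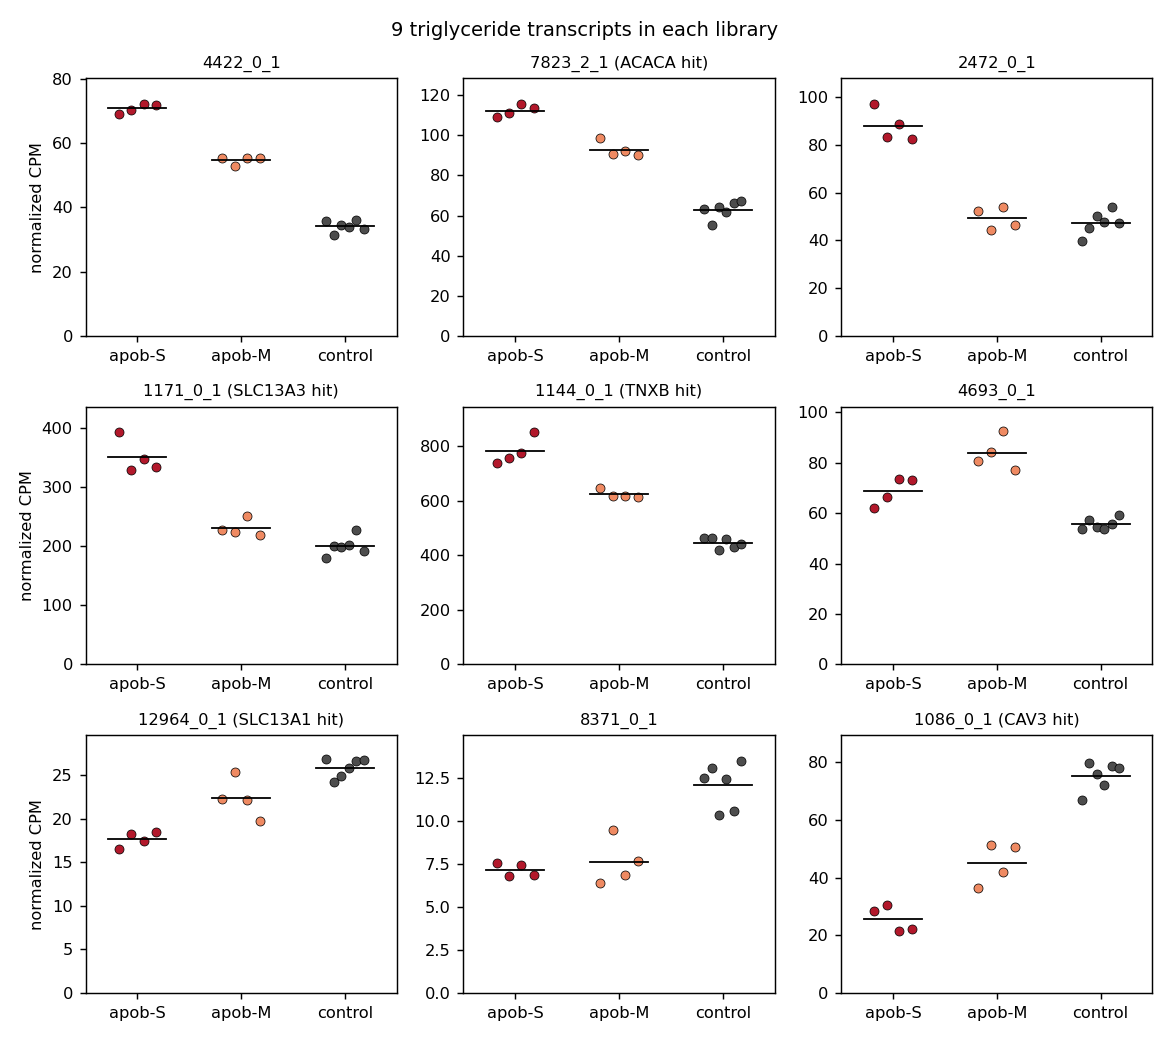
Normalized CPM of 9 triglyceride transcripts in each library, with *apob-S* and *apob-M* (4 points each) left of control (6 points), a line at each group's mean, and the human best hit in the panel title where the tables gave one. Both knockdown groups lay above all control libraries for dd_Smed_v6_4422_0_1, dd_Smed_v6_7823_2_1, dd_Smed_v6_1144_0_1 and dd_Smed_v6_4693_0_1, and below all of them for dd_Smed_v6_8371_0_1 and dd_Smed_v6_1086_0_1, whereas for dd_Smed_v6_2472_0_1 only *apob-S* lay apart from control.

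The storage group held 22 transcripts annotated to triglyceride storage (sequestering) or its regulation. In *apob-S* against control 9 rose (40.9%, against 13.5% of all transcripts) and 2 fell (9.09%, against 15.7%). In *apob-M* 6 rose (27.3%, against 7.05%) and 1 fell (4.55%, against 8.24%). Their summed level was 1643 normalized CPM in *apob-S* (1601 to 1698), 1466 in *apob-M* (1442 to 1505) and 1370 in control (1354 to 1400), with no overlap. This sum leaned on abundant transcripts, above all dd_Smed_v6_1171_0_1, which averaged 350.8 in *apob-S*, 230.5 in *apob-M* and 199.8 in control. Transcripts with best hits to 2 sodium-coupled transporters of the SLC13 family moved in opposite directions. The transcript dd_Smed_v6_1171_0_1 (best hit SLC13A3, a dicarboxylate transporter) had 392.5, 329.2, 347.3 and 334.3 normalized CPM in *apob-S*, 227.9, 224.6, 251.0 and 218.6 in *apob-M*, and 179.5 to 227.0 (median 199.5) in control. All *apob-S* libraries were above the rest, and *apob-M* overlapped control. It was 1.76-fold higher in *apob-S* than in control (log2 fold change 0.81 ± 0.060, edgeR adjusted p = 4.93e-09) and 1.15-fold higher in *apob-M* (0.21 ± 0.060, adjusted p = 0.0253), and the *apob-M* call was lost without *apob-M* replicate 3 (adjusted p = 0.0888) or control replicate 6 (adjusted p = 0.051), and with edgeR's exact test (adjusted p = 0.1).

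The transcript dd_Smed_v6_12964_0_1 (best hit SLC13A1, a sulfate transporter) had 16.6, 18.2, 17.4 and 18.5 normalized CPM in *apob-S*, 22.3, 25.3, 22.1 and 19.8 in *apob-M*, and 24.2 to 26.9 (median 26.2) in control. It was thus lowest in *apob-S*, with *apob-M* between the other groups and overlapping control. Its log2 fold change was -0.55 ± 0.061 in *apob-S* (edgeR adjusted p = 1.04e-06) and -0.21 ± 0.060 in *apob-M* (adjusted p = 0.0232). The *apob-M* call was lost without *apob-M* replicate 1, 3 or 4 (adjusted p = 0.0559, 0.0682 and 0.0975), or with scaling by library size alone (adjusted p = 0.0781). The other storage transcript that fell in *apob-S*, dd_Smed_v6_15654_0_1, is also annotated to regulation of sequestering, and averaged 4.36 ± 0.629 normalized CPM in *apob-S*, 5.49 ± 0.957 in *apob-M* and 6.99 ± 0.998 in control (log2 fold change -0.67 in *apob-S*, edgeR adjusted p = 0.000687). Its value in *apob-M* was -0.34 (adjusted p = 0.082), and was called without *apob-M* replicate 4 (-0.45, adjusted p = 0.0349).

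Homologs of a lipid droplet enzyme and of an energy-sensing kinase subunit, both annotated to storage, rose in *apob-S*. The transcript with a best hit to LDAH, a hydrolase of lipid droplets, had 25.5, 27.3, 24.7 and 29.2 normalized CPM in *apob-S*, 21.6, 21.9, 23.9 and 20.9 in *apob-M*, and 20.9 to 23.4 (median 21.7) in control. This transcript, dd_Smed_v6_4305_0_1, rose by 0.29 ± 0.054 on the log2 scale in *apob-S* (edgeR adjusted p = 0.000338) and differed by 0.020 ± 0.055 in *apob-M* (adjusted p = 0.855). That with a best hit to PRKAG3, a subunit of the AMP-activated kinase, averaged 29.6 ± 2.38 normalized CPM in *apob-S*, 26.4 ± 1.58 in *apob-M* and 23.3 ± 1.20 in control. This transcript, dd_Smed_v6_7565_0_1, rose in *apob-S* (0.35, edgeR adjusted p = 8.21e-05) and in *apob-M* (0.18, adjusted p = 0.0344). Its *apob-M* call was lost without *apob-M* replicate 2 or 3 or control replicate 3, 4, 5 or 6 (adjusted p = 0.1, 0.115, 0.0657, 0.0727, 0.0599 and 0.0589). The transcript dd_Smed_v6_5476_0_1, annotated to regulation of sequestering, rose by like amounts in *apob-S* (60.5 ± 1.53 normalized CPM) and *apob-M* (60.7 ± 2.36), against 51.6 ± 1.91 in control (log2 fold changes 0.23 in *apob-S* and 0.24 in *apob-M*, edgeR adjusted p = 0.000114 and 0.00026). The 2 transcripts with a best hit to ABHD4, a lipase of N-acyl phospholipids, were not called, with log2 fold changes of -0.015 and -0.0082 in *apob-S* and -0.0063 and -0.033 in *apob-M*.

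Breakdown and mobilization was the annotation group whose summed level overlapped between all 3 groups, at 1752 to 1838 normalized CPM in *apob-S*, 1802 to 1869 in *apob-M* and 1754 to 1844 in control. Of its 29 transcripts, 9 rose (31%, against 13.5% of all transcripts) and 6 fell (20.7%, against 15.7%) in *apob-S* against control. In *apob-M* 5 rose (17.2%, against 7.05%) and 3 fell (10.3%, against 8.24%). The transcript with the most triglyceride terms of all, dd_Smed_v6_9544_0_1, is annotated to 6 of them, among which synthesis, breakdown, mobilization and acyl-chain remodeling. It had 42.2, 38.1, 42.8 and 40.2 normalized CPM in *apob-S*, 38.6, 38.0, 36.0 and 36.9 in *apob-M*, and 25.6 to 32.7 (median 29.6) in control. Both knockdown groups lay above control and overlapped each other, with log2 fold changes of 0.50 ± 0.058 in *apob-S* and 0.37 ± 0.059 in *apob-M* (edgeR adjusted p = 1.87e-06 and 0.00021).

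Among other breakdown transcripts that rose, dd_Smed_v6_4014_0_1 averaged 137 ± 6.07 normalized CPM in *apob-S*, 125 ± 6.25 in *apob-M* and 104 ± 2.41 in control (log2 fold changes 0.40 in *apob-S* and 0.27 in *apob-M*, edgeR adjusted p = 3.87e-07 and 0.000162). The transcript with a best hit to PRKACB, a catalytic subunit of protein kinase A, which stimulates lipolysis in mammalian fat cells, had 90.3, 97.8, 89.4 and 96.9 normalized CPM in *apob-S*, 80.1, 84.0, 93.7 and 78.4 in *apob-M*, and 70.7 to 83.9 (median 78.3) in control. This transcript, dd_Smed_v6_3711_0_1, rose in *apob-S* (0.26 ± 0.054, edgeR adjusted p = 0.001), where all libraries lay above control, and had a value of 0.11 ± 0.054 in *apob-M* (adjusted p = 0.219). The transcript dd_Smed_v6_9669_0_1 rose in *apob-S* (0.46, edgeR adjusted p = 7.2e-06) with 25.4 ± 1.20 normalized CPM, against 20.9 ± 1.80 in *apob-M* and 18.4 ± 1.10 in control. It was also called in *apob-M* (0.19, edgeR adjusted p = 0.0474). This weak call was lost in many alternatives, among them edgeR's exact test (adjusted p = 0.0617), limma-voom (0.0652) and the fit without *apob-M* replicate 1 (0.175).

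The breakdown transcripts that fell were led by dd_Smed_v6_8371_0_1, which had 7.54, 6.79, 7.46 and 6.86 normalized CPM in *apob-S*, 6.42, 9.49, 6.87 and 7.65 in *apob-M*, and 10.4 to 13.5 (median 12.5) in control. Every knockdown library lay below every control library, and *apob-S* and *apob-M* overlapped. Its log2 fold change was -0.75 ± 0.11 in *apob-S* and -0.66 ± 0.11 in *apob-M* (edgeR adjusted p = 1.85e-05 and 0.00021). The transcript dd_Smed_v6_4928_0_1 fell in a graded way, with 45.7 ± 1.72 normalized CPM in *apob-S*, 53.7 ± 3.27 in *apob-M* and 60.7 ± 1.25 in control (log2 fold changes -0.41 in *apob-S* and -0.18 in *apob-M*, edgeR adjusted p = 3.33e-07 and 0.00577). The transcript dd_Smed_v6_9122_0_1 fell more in *apob-M* (8.66 ± 1.11 normalized CPM) than in *apob-S* (9.45 ± 0.766), against 11.2 ± 0.878 in control, but the 2 knockdown groups were not called apart (edgeR adjusted p = 0.502). Its *apob-S* call (-0.25, adjusted p = 0.0404) was lost without *apob-S* replicate 1, 2 or 4 or control replicate 1, 2 or 3, at adjusted p between 0.0509 and 0.149.

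A transcript with a best hit to CPS1, the carbamoyl phosphate synthetase of the urea cycle, was called lower in *apob-S* and was not called in *apob-M*. It had 206.5, 218.7, 198.0 and 219.7 normalized CPM in *apob-S*, 233.2, 240.1, 257.2 and 241.1 in *apob-M*, and 228.7 to 258.0 (median 242.2) in control. This transcript, dd_Smed_v6_4349_0_1, had log2 fold changes of -0.21 ± 0.043 in *apob-S* (edgeR adjusted p = 0.00086) and -0.0052 ± 0.043 in *apob-M* (adjusted p = 0.959), and *apob-S* was also lower than *apob-M* (-0.21 ± 0.047, adjusted p = 0.00598), a call that was lost with edgeR's exact test (adjusted p = 0.084). The transcript dd_Smed_v6_271_0_1, with a best hit to the fatty acid-binding protein FABP7, averaged 251 ± 10.2 normalized CPM in *apob-S*, 282 ± 11.4 in *apob-M* and 254 ± 24.6 in control. It was not called in *apob-S* (-0.015, edgeR adjusted p = 0.885) or in *apob-M* (0.15, adjusted p = 0.105), though the *apob-M* value was called without control replicate 2 (0.19, adjusted p = 0.0364).

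**Figure D3:**
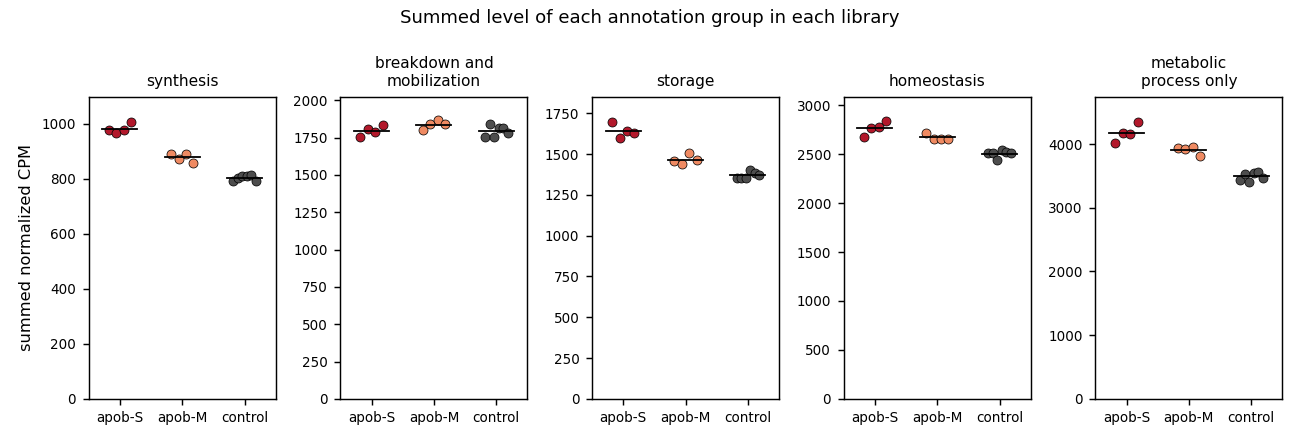
Summed normalized CPM of the transcripts of each annotation group in each library, with *apob-S* and *apob-M* left of control and a line at each group's mean. Synthesis was at 982.8 in *apob-S*, 878.6 in *apob-M* and 804 in control on average. Breakdown and mobilization was at 1796 in *apob-S*, 1838 in *apob-M* and 1794 in control. Sums weigh abundant transcripts most. The share called higher was alike, at 31.8% of synthesis and 31% of breakdown transcripts in *apob-S*, and 18.2% and 17.2% in *apob-M*. The share called lower was 4.55% and 20.7% in *apob-S*, and 0% and 10.3% in *apob-M*.

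Homeostasis was the largest annotation group. Of its 42 transcripts, 11 rose (26.2%, against 13.5% of all transcripts) and 3 fell (7.14%, against 15.7%) in *apob-S* against control. In *apob-M* 6 rose (14.3%, against 7.05%) and 1 fell (2.38%, against 8.24%). The largest rise in *apob-S* was that of dd_Smed_v6_3499_0_1, with a best hit to SLCO1B3, an organic anion and bile acid transporter of the liver in mammals. It had 108.1, 123.0, 117.1 and 120.8 normalized CPM in *apob-S*, 100.3, 103.6, 101.0 and 90.6 in *apob-M*, and 84.4 to 91.8 (median 86.0) in control. All *apob-S* libraries lay above the rest, and *apob-M* overlapped control in 1 library. Its log2 fold change was 0.44 ± 0.046 in *apob-S* and 0.19 ± 0.046 in *apob-M* (edgeR adjusted p = 4.6e-07 and 0.00718).

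The pantothenate kinases, which start the synthesis of coenzyme A, gave 3 best hits in this group, and they did not move alike. The transcript dd_Smed_v6_994_0_1 (best hit PANK2) had 495.3, 568.3, 544.2 and 591.7 normalized CPM in *apob-S*, 542.8, 532.2, 526.1 and 530.5 in *apob-M*, and 446.8 to 467.8 (median 461.7) in control. Both knockdown groups lay above control, with log2 fold changes of 0.26 ± 0.039 in *apob-S* and 0.22 ± 0.039 in *apob-M* (edgeR adjusted p = 3.18e-05 and 0.000658). The transcript dd_Smed_v6_2075_0_1 (best hit PANK1) averaged 163 ± 5.96 normalized CPM in *apob-S*, 147 ± 5.73 in *apob-M* and 140 ± 5.49 in control, and rose in *apob-S* (0.23, edgeR adjusted p = 0.000278) while its value in *apob-M* was 0.072 (adjusted p = 0.274). The transcript dd_Smed_v6_3794_0_1 (best hit PANK1) averaged 35.9 ± 6.04 normalized CPM in *apob-S*, 34.3 ± 2.26 in *apob-M* and 38.9 ± 1.18 in control and was not called in *apob-S* (-0.12, edgeR adjusted p = 0.254) or *apob-M* (-0.18, adjusted p = 0.116). *apob-S* replicate 4, at 44.5 normalized CPM, lay above all control libraries and the other *apob-S* libraries below them, and without it the *apob-S* value was -0.24 (adjusted p = 0.00238).

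Lower values in this group were found for dd_Smed_v6_3379_0_1, at 81.7 ± 3.65 normalized CPM in *apob-S*, 86.6 ± 1.86 in *apob-M* and 98.0 ± 2.45 in control, which fell in *apob-S* (-0.26) and *apob-M* (-0.18). A transcript with a best hit to TUB, named for the mouse *tubby* obesity gene, fell in *apob-S* against control: dd_Smed_v6_10462_0_1 averaged 11.0 ± 0.914 normalized CPM in *apob-S*, 13.9 ± 0.886 in *apob-M* and 13.6 ± 1.37 in control (-0.30, edgeR adjusted p = 0.00797). The transcript with a best hit to the transcription factor YY1 was not called, with log2 fold changes of -0.033 in *apob-S* and 0.014 in *apob-M*. That with a best hit to the nuclear receptor NR1I3, dd_Smed_v6_11714_0_1, was called in neither comparison with control (0.16 in *apob-S* and -0.18 in *apob-M*), but was higher in *apob-S* than in *apob-M* (0.34 ± 0.088, edgeR adjusted p = 0.0137).

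The 32 transcripts annotated to triglyceride metabolic process with no finer term held the largest changes in both directions. In *apob-S* against control 9 rose (28.1%, against 13.5% of all transcripts) and 7 fell (21.9%, against 15.7%). In *apob-M* 8 rose (25%, against 7.05%) and 4 fell (12.5%, against 8.24%). The transcript dd_Smed_v6_4422_0_1 had 68.9, 70.2, 72.1 and 71.7 normalized CPM in *apob-S*, 55.4, 53.0, 55.4 and 55.2 in *apob-M*, and 31.5 to 35.9 (median 34.3) in control. The 3 groups were far apart relative to the spread within each. It was 2.07-fold higher in *apob-S* (log2 fold change 1.05 ± 0.038, edgeR adjusted p = 5.13e-13) and 1.6-fold higher in *apob-M* (0.68 ± 0.039, adjusted p = 5.69e-10). The transcript dd_Smed_v6_1144_0_1, whose best hit was the matrix protein TNXB (tenascin-X), had 739.0, 756.6, 776.3 and 852.7 normalized CPM in *apob-S*, 647.9, 618.6, 616.2 and 615.1 in *apob-M*, and 418.9 to 464.4 (median 450.6) in control. All 3 groups were again apart, at log2 fold changes of 0.81 ± 0.040 in *apob-S* and 0.49 ± 0.040 in *apob-M* (edgeR adjusted p = 2.68e-11 and 9.18e-08). Tenascin-X is known as an extracellular matrix protein, and the triglyceride term of this transcript is that of the study's annotation.

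In some transcripts the *apob-M* value was as high as the *apob-S* value or higher. The transcript dd_Smed_v6_4223_0_1 had 117.2, 125.3, 115.3 and 129.1 normalized CPM in *apob-S*, 129.5, 132.5, 136.8 and 130.1 in *apob-M*, and 79.4 to 85.4 (median 82.9) in control. It rose in *apob-S* (0.56 ± 0.040, edgeR adjusted p = 3.28e-09) and in *apob-M* (0.68 ± 0.039, adjusted p = 7.54e-10), and the difference between the knockdown groups was not called (-0.12 ± 0.043, adjusted p = 0.0851). This difference was called with DESeq2 (adjusted p = 0.0436) or limma-voom (0.0404), and without *apob-S* replicate 4 (-0.15, edgeR adjusted p = 0.0393). The transcript dd_Smed_v6_4693_0_1 had 62.0, 66.4, 73.40 and 73.02 normalized CPM in *apob-S*, 80.6, 84.3, 92.6 and 77.3 in *apob-M*, and 53.5 to 59.5 (median 55.1) in control. Here *apob-M* was the highest group and *apob-S* lay between it and control, with no overlap (log2 fold changes 0.30 ± 0.055 in *apob-S*, 0.59 ± 0.055 in *apob-M* and -0.29 ± 0.061 in *apob-S* against *apob-M*, the last at an edgeR adjusted p of 0.00353).

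Several abundant transcripts of this group rose. The most abundant triglyceride transcript, dd_Smed_v6_257_0_1, averaged 880 ± 26.2 normalized CPM in *apob-S*, 841 ± 44.8 in *apob-M* and 734 ± 41.6 in control (log2 fold changes 0.26 in *apob-S* and 0.20 in *apob-M*). Its *apob-M* libraries overlapped control, and the *apob-M* call was lost with edgeR's exact test (adjusted p = 0.0812). The transcript dd_Smed_v6_859_0_1 was at 647 ± 23.0 in *apob-S*, 542 ± 15.8 in *apob-M* and 483 ± 13.6 in control (0.42 in *apob-S* and 0.17 in *apob-M*). The transcript dd_Smed_v6_1565_0_1, with a best hit to LIPF, the gastric lipase, was at 218 ± 17.4 normalized CPM in *apob-S*, 217 ± 7.28 in *apob-M* and 190 ± 10.7 in control (log2 fold changes 0.20 in *apob-S* and 0.19 in *apob-M*, edgeR adjusted p = 0.00714 and 0.0186), and its *apob-M* call was lost without *apob-M* replicate 2 (adjusted p = 0.0645) or with edgeR's exact test (adjusted p = 0.104). Of 2 transcripts with a best hit to CAT, the catalase that breaks down hydrogen peroxide, dd_Smed_v6_20433_0_1 rose in *apob-S* (8.92 ± 0.352 normalized CPM, against 6.34 ± 0.195 in control, log2 fold change 0.49, edgeR adjusted p = 0.000103), and dd_Smed_v6_32853_0_1 was not called (0.21, adjusted p = 0.111). In *apob-M* dd_Smed_v6_20433_0_1 averaged 7.56 ± 0.892 normalized CPM, a weak call (0.25, edgeR adjusted p = 0.0451) that was lost without any 1 of *apob-M* replicates 1 to 3 or control replicates 1 to 5, at adjusted p between 0.0638 and 0.152.

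The largest decrease was that of dd_Smed_v6_1086_0_1, with a best hit to CAV3, the caveolin of muscle cell membranes. It had 28.3, 30.4, 21.6 and 22.2 normalized CPM in *apob-S*, 36.4, 51.2, 42.0 and 50.5 in *apob-M*, and 66.8 to 79.8 (median 77.1) in control. No group overlapped another, and the change of -1.55 ± 0.10 in *apob-S* was larger than that of -0.74 ± 0.097 in *apob-M* by the direct comparison (-0.81 ± 0.11, edgeR adjusted p = 6.29e-05). The other transcript with a CAV3 best hit, dd_Smed_v6_10578_0_1, was near the filter on low values, with 1.90 ± 0.425 normalized CPM in *apob-S*, 1.45 ± 0.584 in *apob-M* and 1.17 ± 0.368 in control. It was not called (0.69 ± 0.26 in *apob-S*, edgeR adjusted p = 0.0556, and 0.29 ± 0.28 in *apob-M*, adjusted p = 0.547). The *apob-S* value was called with edgeR's exact test (adjusted p = 0.0364), DESeq2 (0.0353) or the compared groups alone (0.0377). It was also called without *apob-S* replicate 2 (adjusted p = 0.0274) or control replicate 3 (adjusted p = 0.0215). For muscle, 5 transcripts were picked by human best hit, which does not establish that they mark muscle. The tropomyosin homolog with best hit TPM3 fell in *apob-S* and *apob-M* (-0.21 and -0.17). That with best hit TAGLN3 fell in *apob-M* (-0.23), and MYH10, MYL1 and TPM1 homologs were not called. The summed level of the 5 ranged from 939.7 to 1104 normalized CPM in *apob-S*, from 965.5 to 1107 in *apob-M* and from 979.2 to 1291 in control. The decrease of dd_Smed_v6_1086_0_1 was larger than that of any of these 5 transcripts. The study reported muscle morphogenesis and function among the categories that fell. A part of muscle in the decrease of dd_Smed_v6_1086_0_1 was not tested.

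**Figure D4:**
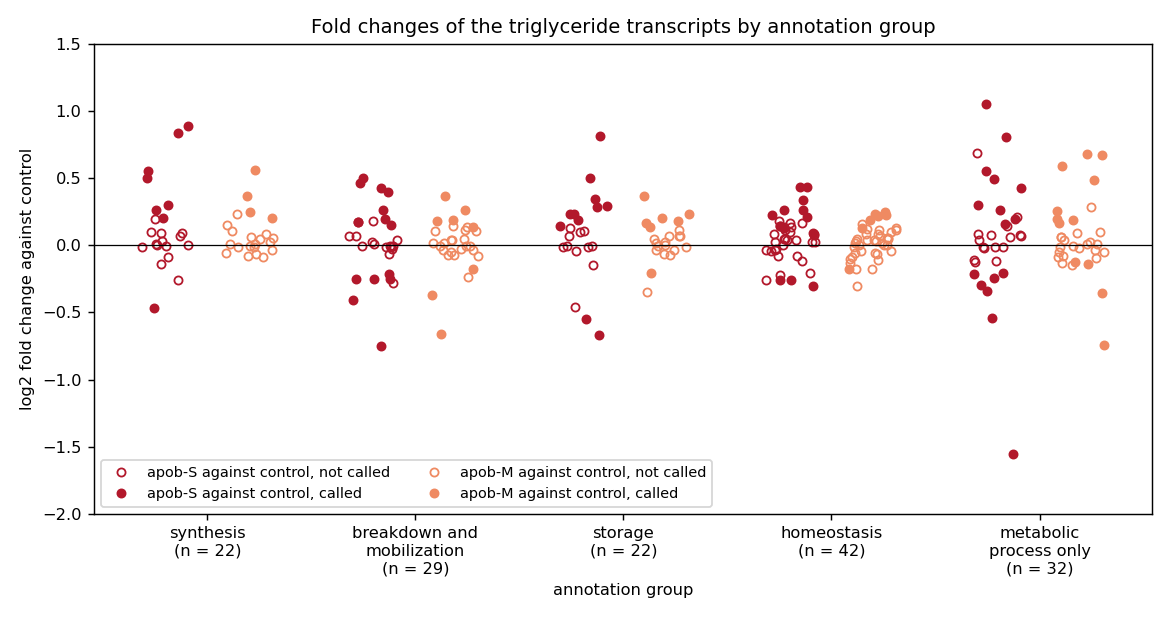
Log2 fold change against control of every tested triglyceride transcript, by annotation group, in *apob-S* (left, dark) and *apob-M* (right, light), with filled points for called transcripts and open points for the others. A transcript in more than 1 group is plotted in each, and 7 transcripts were in more than 1 group before the filter. The points range from -1.55 to 1.05 in *apob-S* and from -0.74 to 0.68 in *apob-M*.

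*apob-S* and *apob-M* animals received the same dsRNA, and their levels of *apob-1* and *apob-2* were not called apart (edgeR adjusted p = 0.592 and 0.517). In *apob-S* against *apob-M*, 18 of 139 triglyceride transcripts were higher and 12 were lower (21.6% called), where 5.17% of all transcripts tested were higher and 6.86% lower (12% in either direction). The median log2 fold change of the 139 was 0.034, and none of them differed by 2-fold (background 0.564%). Libraries did not overlap for 23 transcripts that lay above *apob-M* and 16 below it (background 7.04% and 8.73%). Among the called transcripts, the largest differences were those of dd_Smed_v6_2472_0_1 (0.84) and the SLC13A3 homolog dd_Smed_v6_1171_0_1 (0.61 ± 0.066, edgeR adjusted p = 6.89e-06) among those higher in *apob-S*, and of the CAV3 homolog dd_Smed_v6_1086_0_1 (-0.81) and dd_Smed_v6_12714_0_1 (-0.55 ± 0.13, adjusted p = 0.00748) among those lower in *apob-S*. The homologs of LDAH (0.27), AGMO (0.35), SLCO1B3 (0.25) and ACACA (dd_Smed_v6_7823_2_1, 0.27) were also higher in *apob-S* than in *apob-M*. That of PANK1 (dd_Smed_v6_2075_0_1) was higher by 0.15 (adjusted p = 0.0293), a call that was lost without *apob-M* replicate 2 or 3 or *apob-S* replicate 2, 3 or 4, at adjusted p between 0.0611 and 0.104, or with edgeR's exact test (adjusted p = 0.202). That of TUB (dd_Smed_v6_10462_0_1) was lower by -0.34 (adjusted p = 0.0167), which was lost without *apob-M* replicate 4 (adjusted p = 0.0622) or *apob-S* replicate 2 (adjusted p = 0.054).

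**Figure D5:**
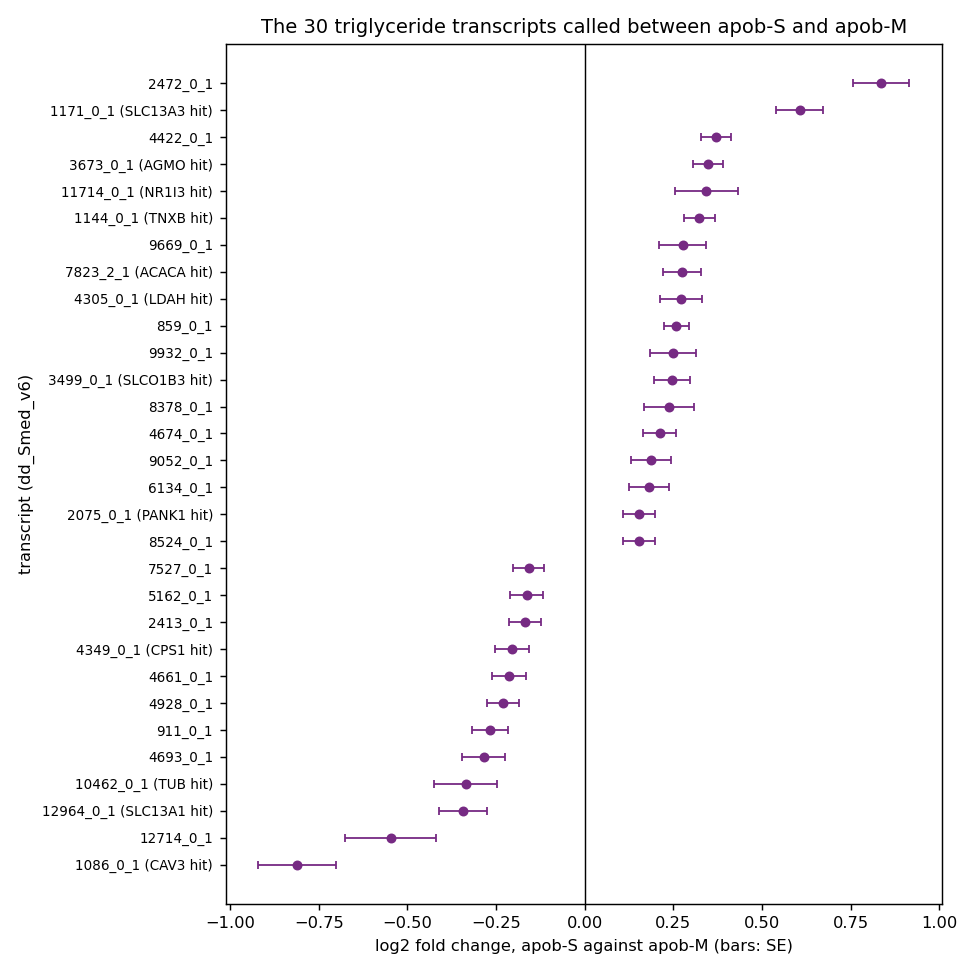
Log2 fold change of *apob-S* against *apob-M* (points) with its standard error (bars) for the 30 triglyceride transcripts called in this comparison, 18 higher and 12 lower, labelled by the end of the dd_Smed_v6 identifier and the human best hit. The values range from -0.81 for the CAV3 homolog to 0.84 for dd_Smed_v6_2472_0_1.

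Of the 139, 29 are also in the study's cholesterol sheet. Among these 12 rose (41.4%) and 3 fell (10.3%) in *apob-S* against control, and 7 rose (24.1%) and 2 fell (6.9%) in *apob-M*. Among the other 110 transcripts 31 rose (28.2%) and 16 fell (14.5%) in *apob-S*, and 20 rose (18.2%) and 7 fell (6.36%) in *apob-M*. Of all transcripts 13.5% rose and 15.7% fell in *apob-S*, and 7.05% rose and 8.24% fell in *apob-M*. The difference between the 29 and the other 110 was not tested. Of the 28 with a human best hit, 14 rose (50%) and 4 fell (14.3%) in *apob-S*, and 10 rose (35.7%) and 2 fell (7.14%) in *apob-M*. The tables of best hits were held in part, and 1993 transcripts in all had a hit, so these 28 are not a sample of the 139.

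Of 4 triglyceride transcripts outside lipid transport that did not meet the filter, dd_Smed_v6_7967_0_1 had 175 counts over the 4 *apob-S* libraries, 29 over the 4 *apob-M* libraries and 46 over the 6 control libraries. dd_Smed_v6_9731_0_1 had 107 counts over the *apob-S* libraries, 20 over the *apob-M* libraries and 52 over the control libraries. The remaining 2, dd_Smed_v6_28864_0_1 and dd_Smed_v6_42763_0_1, had 60 and 39 counts over the *apob-S* libraries, 39 and 42 over the *apob-M* libraries, and 90 and 56 over the control libraries. These 4 were not tested. By summed counts, 2 of the 4 were thus higher in *apob-S* than in the other groups.

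Transcripts with human best hits to other enzymes and regulators of neutral lipid metabolism, which are not in the list of 139, moved as follows. Of 23 tested, 6 rose (26.1%, against 13.5% of all transcripts) and 4 fell (17.4%, against 15.7%) in *apob-S* against control. In *apob-M* 6 rose (26.1%, against 7.05%) and 1 fell (4.35%, against 8.24%). The share that fell in *apob-S* was thus near the background. These 23 were found through best hits in tables held in part, so they are not a sample of such transcripts. The homolog of SREBF2, a transcription factor of sterol synthesis genes, rose in *apob-S* (0.76) and *apob-M* (0.73), as did an ELOVL4 homolog, dd_Smed_v6_2311_0_1, for an enzyme that lengthens fatty acids (1.18 in *apob-S* and 1.30 in *apob-M*). Of the other ELOVL4 homologs, dd_Smed_v6_1977_0_1 fell in *apob-S* (-0.24, edgeR adjusted p = 0.000123) and *apob-M* (-0.13, adjusted p = 0.0359), and dd_Smed_v6_10529_0_1 was not called (0.080 in *apob-S* and 0.20 in *apob-M*). The homolog of MGLL, the monoglyceride lipase, fell in *apob-S* (-0.39, edgeR adjusted p = 0.000244). The 6 triglyceride transcripts that are also in the lipid transport sheet include *apob-1* and *apob-2*, which were targeted, and *mttp* (dd_Smed_v6_5671_0_1), the transfer protein that loads lipid onto ApoB, which averaged 149.5 normalized CPM in *apob-S*, 117 in *apob-M* and 70.3 in control. Its log2 fold changes of 1.09 in *apob-S* and 0.74 in *apob-M* were each larger than the largest rise among the 139 in the same comparison. The lipoprotein receptor transcript *ldlr-1* (dd_Smed_v6_9829_0_1) rose more, by 1.81 in *apob-S* and 1.31 in *apob-M*. The PLIN5 homolog and dd_Smed_v6_933_0_1 rose in *apob-S* (0.24 and 0.47) and were not called in *apob-M* (0.085 and 0.055).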

How the data were processed

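The authors checked reads with FastQC 0.11.5, trimmed them, aligned them to the dd_Smed_v6 transcriptome with Bowtie2 2.3.1 and counted them per transcript with featureCounts (Subread 1.6.3), keeping reads that matched several transcripts. The authors deposited whole-number counts with no normalization, and these were used here. A deposited table of the authors' own comparisons (log2 fold changes, mean log2 CPM and false discovery rates) was not used.

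Counts were analysed in R 4.3.3 with edgeR 4.0.16, with TMM, a filter of 1 CPM in at least 4 libraries, all 14 libraries in the fit, group as the only term, the quasi-likelihood test and Benjamini-Hochberg adjustment at 0.05 over 18436 transcripts. The fit was tested on simulated data. Total counts were between 16839133 and 23039326 per library.

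The transcripts, their groups and the alternatives were chosen with earlier results of these data known. Named transcripts are those with a human best hit, up to 10 called higher and 10 called lower with no overlap in each comparison with control (5 and 5 in *apob-S* against *apob-M*), those with 3 or more triglyceride terms, the most and least abundant, and those with an outlying library, beside a few chosen after their values were seen. Alternatives were DESeq2 1.42.0, the exact test of edgeR, voom in limma 3.58.1, other scalings and filters, the compared groups alone, a replicate block, stricter thresholds and each library left out in turn.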

Additional observations from a re-analysis of the deposited data

Results flagged for a closer look

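Each transcript was checked in each group for a library that stood far from the others of its group (Dixon's test at 95%). Of 417 such groups, 13 held one, and chance flags about 1 in 20 groups. In *apob-S*, dd_Smed_v6_3247_0_1 stood high in replicate 1 (91.5 normalized CPM, the others at 83.7 to 85.0) and dd_Smed_v6_17801_0_1 in replicate 4 (2.70, the others at 1.65 to 1.76). In *apob-M*, a library stood high for dd_Smed_v6_1144_0_1 (647.9 in replicate 1, the others at 615.1 to 618.6) and dd_Smed_v6_4674_0_1 (50.4 in replicate 4, the others at 45.0 to 45.9). A library stood low in *apob-M* for dd_Smed_v6_4014_0_1 (115.9 in replicate 2, the others at 127.2 to 129.2), dd_Smed_v6_4422_0_1 (53.0 in replicate 2, the others at 55.2 to 55.4), dd_Smed_v6_6535_0_1 (46.9 in replicate 4, the others at 55.3 to 56.3) and dd_Smed_v6_7741_0_1 (6.54 in replicate 4, the others at 7.76 to 7.99). In control, a library stood high for dd_Smed_v6_3499_0_1 (91.8 in replicate 1, the others at 84.4 to 86.6) and dd_Smed_v6_15654_0_1 (8.87 in replicate 5, the others at 5.87 to 6.96), and low for dd_Smed_v6_1453_0_1 (110.2 in replicate 3, the others at 122.4 to 126.7), dd_Smed_v6_5540_0_1 (44.6 in replicate 2, the others at 48.5 to 50.6) and dd_Smed_v6_9387_0_1 (7.31 in replicate 1, the others at 8.81 to 9.27). For dd_Smed_v6_1144_0_1 and dd_Smed_v6_4422_0_1 the outlying library still lay apart from every library of the other groups.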

How the results depend on the processing

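No named transcript that was called, in the reported fit or under the alternative, changed sign; values near 0 that were called in neither could do so. Of the values of named transcripts under the alternatives, 3344 kept their side of the threshold, 90 lost the call and 28 gained it. Fewer transcripts were higher in *apob-M* against control with edgeR's exact test (17, against 5.39% of all transcripts) or an adjusted p under 0.01 (17, against 3.78%), and in *apob-S* against *apob-M* at 0.01 (11, against 3.14%); the cause of the first was not tested. With a log2 fold change of at least 1 also required, 1 was higher and 1 lower in *apob-S* against control (0.711% and 0.738% of all transcripts). In the other comparisons 0 were called in either direction. Of all transcripts, 0.19% were then higher and 0.239% lower in *apob-M* against control, and 0.439% and 0.125% in *apob-S* against *apob-M*. Each library was also left out in turn. In *apob-S* against control 38 to 44 were higher (11.7% to 13.3% of all transcripts) and 17 to 19 lower (13.9% to 15.6%), with a median of 0.0243 to 0.0787. In *apob-M* against control 21 to 26 were higher (5.71% to 6.89%) and 6 to 10 lower (5.77% to 8.92%), with a median of 0.0209 to 0.0385. In *apob-S* against *apob-M* 13 to 18 were higher (3.99% to 5.13%) and 9 to 13 lower (4.87% to 6.82%), with a median of 0.0153 to 0.0419. Same-numbered samples did not deviate together (r between -0.198 and 0.125), so the numbers do not pair the samples. Between differently numbered samples r ranged from -0.216 to 0.239. The largest values were those of *apob-S* replicate 2 with *apob-M* replicate 3 (0.239) and with control replicate 1 (0.227), and of *apob-M* replicate 3 with control replicate 1 (0.220). In each of these libraries dd_Smed_v6_4_1_1 was the top transcript. Leaving them all out together, with control replicate 2, was not tried. With the replicate number as a block, 42 were higher and 19 lower in *apob-S* (11.6% and 13.8% of all transcripts). In *apob-M*, whose median was 0.0464, 21 were higher and 6 lower (5.18% and 6.22%). Leaving out *apob-M* replicate 3 and *apob-S* replicate 2 together was chosen after seeing the data. Small changes may have gone uncalled at this depth and number of libraries, and the share called by size of change was not computed.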
